A study of Mus musculus with 24 samples.

Results

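The mitochondrial genome transcripts are all rows of the deposited expression table whose gene symbol starts with mt-. They number 37 of 15390 rows and cover the whole gene content of mouse mitochondrial DNA: 13 messages, 2 ribosomal RNAs and 22 transfer RNAs. They were measured in MC38, a mouse colon carcinoma line, in 24 libraries of 3′ tags. The control cells carried Control gRNA 1 or Control gRNA 2, and the cells labelled Ado KO carried Ado gRNA 1 or Ado gRNA 2. Ado encodes a thiol dioxygenase that oxidises cysteamine and N-terminal cysteines of proteins. Each of these 4 guide populations was left untreated, given TNF for 1 h or given TNF for 6 h, with 2 libraries each, which gives 6 groups of 4 libraries. TNF is an inflammatory cytokine that signals through NF-kB, and its dose is not given in the labels. Whether a guide population was 1 clone or a pool, and whether its 2 libraries came from separate cultures, is not given either, so the error behind each p-value may be only technical.

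Mitochondrial DNA is a small circle present in many copies per cell. Both strands are transcribed by the polymerase Polrmt, with the factors Tfam and Tfb2m, into long precursors that are cut into single RNAs, mostly at the tRNAs that lie between the messages. Its messages encode core subunits of respiratory complexes I, III and IV and of the ATP synthase, and its rRNAs and tRNAs serve the ribosome inside the organelle that translates them. All other subunits, and all proteins that copy, cut and translate these RNAs, come from nuclear genes. Of the members, 12 messages, both rRNAs and 14 tRNAs are read from the heavy-strand precursor, and mt-Nd6 with 8 tRNAs from the light-strand precursor. The 3′ tag kit starts on A stretches with an oligo(dT) primer, so a tag marks a short A tail or an A-rich stretch inside an RNA, and a row counts the tags that fall inside its gene.

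Several features of the gene sequences bear on what a row can count. All positions and sequences are from GENCODE M21 on GRCm38. Mt-Co3, mt-Nd4 and mt-Cytb end in an incomplete stop codon (capitals), which a tail of A completes, so an A tail belongs to the coding sequence of these messages. The 3 ends lie at chrM:9361-9390, chrM:11515-11544 and chrM:15259-15288, on the plus strand.
mt-Co3: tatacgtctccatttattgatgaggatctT
mt-Nd4: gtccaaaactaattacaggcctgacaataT
mt-Cytb: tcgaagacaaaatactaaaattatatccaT

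A pair of neighbouring reading frames shares bases at 2 places, where the frames lie on the same message. The first 43 bases of mt-Atp6 are also the end of mt-Atp8 (chrM:7917-7969, plus strand), and the first 7 bases of mt-Nd4 are also the end of mt-Nd4l (chrM:10157-10173, plus strand). The shared bases are in capitals. The rows mt-Atp8 and mt-Nd4l therefore end inside a longer message and not at its 3′ end.
mt-Atp8: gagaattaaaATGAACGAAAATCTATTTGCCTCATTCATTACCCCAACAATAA
mt-Nd4l: acctactacaATGCTAA

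Inside the RNAs stand runs of A on which a primer can start. The 20-base windows with the most A are shown in capitals for mt-Rnr2 (chrM:1478-1517), mt-Nd2 (chrM:4030-4069), mt-Nd4 (chrM:10397-10436) and mt-Nd5 (chrM:12613-12652), which are 4 of the 6 members with a run of 7 or 8 A. The others are mt-Co1 and mt-Tr. In each of these 4 the window lies well inside the gene and not at its 3′ end. All 4 are on the plus strand. Mt-Nd6 has no run longer than 3 A.
mt-Rnr2: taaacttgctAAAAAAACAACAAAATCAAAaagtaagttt
mt-Nd2: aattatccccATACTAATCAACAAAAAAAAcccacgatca
mt-Nd4: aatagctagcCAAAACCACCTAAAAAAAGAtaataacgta
mt-Nd5: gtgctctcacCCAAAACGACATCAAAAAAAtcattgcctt

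The tRNAs are shown for the rows described below, with the longest run of A in capitals. They are mt-Tq for glutamine (chrM:3772-3842, minus strand), mt-Te for glutamate (chrM:14071-14139, minus strand), mt-Tg for glycine (chrM:9391-9458, plus strand), mt-Tl1 for leucine (chrM:2676-2750, plus strand) and mt-Tr for arginine (chrM:9808-9875, plus strand).
mt-Tq: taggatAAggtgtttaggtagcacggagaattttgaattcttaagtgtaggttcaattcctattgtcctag
mt-Te: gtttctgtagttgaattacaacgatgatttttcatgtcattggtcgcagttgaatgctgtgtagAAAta
mt-Tg: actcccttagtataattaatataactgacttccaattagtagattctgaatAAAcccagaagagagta
mt-Tl1: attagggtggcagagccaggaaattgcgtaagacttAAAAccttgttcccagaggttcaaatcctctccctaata
mt-Tr: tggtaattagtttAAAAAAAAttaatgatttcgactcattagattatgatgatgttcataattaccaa

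The values are log2 CPM, the log of tags scaled to a common library total, as normalised and deposited by the authors. All libraries share a lowest value of -3.35 and a highest of 17.04, as after quantile normalisation, so a level is relative to the other genes of its library. Among the highest members the same values recur, such as 11.79 in mt-Nd1 and mt-Cytb and 11.87 and 11.95 in mt-Nd1 and mt-Rnr2. Equal values or a small spread in such rows may thus reflect equal ranks and not equal measured levels. In such bulk samples fewer mitochondria per cell, fewer RNAs per mitochondrion and a change in the rest of the RNA cannot be told apart. No library size is stated in the sources used here, so the depth behind each value is unknown. Libraries of 1 group correlated with the others of their group at 0.962 to 0.975 across genes. The Ado row itself averaged 5.26 ± 0.08 log2 CPM in untreated control cells and 5.35 ± 0.09 in untreated Ado KO cells (SD, n = 4 each), but a 3′ tag does not read an edit elsewhere in the gene and does not check the label. Of 11 epithelial markers 3 were rows of the table, with summed levels of 0.294 to 3.37 CPM. Of 14 immune markers 7 were rows, with summed levels of 7.17 to 41.7 CPM, and of 7 endothelial and pericyte markers 4, at 1.25 to 9.11 CPM. The epithelial markers were thus near the floor in all groups of this carcinoma line.

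In the members 2 libraries at 1 h stood apart, and results that rest on them are given with and without them. In the control 1 h library of guide 1, replicate 2, both rRNAs were 1.40 log2 units above the mean of the other 3 libraries of its group, and mt-Atp8 and mt-Nd5 were 2.56 and 1.36 above it. Its tRNAs mt-Ta and mt-Te were 1.31 and 1.07 below (differences of -1.31 and -1.07). In the Ado KO 1 h library of guide 2, replicate 2, the messages together held 1.85% of the summed CPM, against 1.29% to 1.35% in the other 3.

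Members that were tested passed a filter of at least 0 log2 CPM in at least 4 of the 24 libraries, which kept 13272 genes. All 13 messages, both rRNAs and 20 of 22 tRNAs passed. The leucine tRNA mt-Tl2 and the serine tRNA mt-Ts2 did not, and stood at the lowest value of the table in 11 and 3 libraries. Differences are given as log2 units with their standard error, from limma's moderated test over 6 group means in which the guide population entered as a random block. "Rose", "fell", "higher" and "called" are used where the p, adjusted by Benjamini-Hochberg across the 13272 genes, was under 0.05.

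Per kilobase of gene, mt-Nd1, a complex I subunit, had the highest level of the messages, with a mean of 3775 CPM per kb over all libraries. The complex IV subunit mt-Co2 followed with 2865 CPM per kb, the ATP synthase subunit mt-Atp6 with 2634 and the complex III subunit mt-Cytb with 2506. The complex I subunits mt-Nd5, with 139 CPM per kb, and mt-Nd6, with 64.1, were the lowest. The rRNAs mt-Rnr1 and mt-Rnr2 averaged 2848 and 2543 CPM per kb. Since a 3′ tag is counted once per start and not per length, this scale is a convention and not a count of molecules.

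Together the 13 messages held 1.40%, 1.55%, 1.75% and 1.66% of the summed CPM in the untreated control libraries (in all lists of 4 values the order is guide 1 replicates 1 and 2, then guide 2 replicates 1 and 2). At 1 h they held 1.99%, 1.84%, 1.94% and 1.85%, and at 6 h 2.32%, 2.15%, 2.13% and 2.09%. In control cells each 6 h library thus lay above each 1 h library, and each 1 h library above each untreated one. The Ado KO messages held 1.59%, 1.50%, 1.49% and 1.51% untreated, 1.35%, 1.33%, 1.29% and 1.85% at 1 h, and 1.82%, 2.00%, 1.83% and 1.75% at 6 h. There the 1 h libraries lay below the untreated ones except the library that stood apart, and the 6 h libraries lay above the untreated ones.

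**Figure D1:**
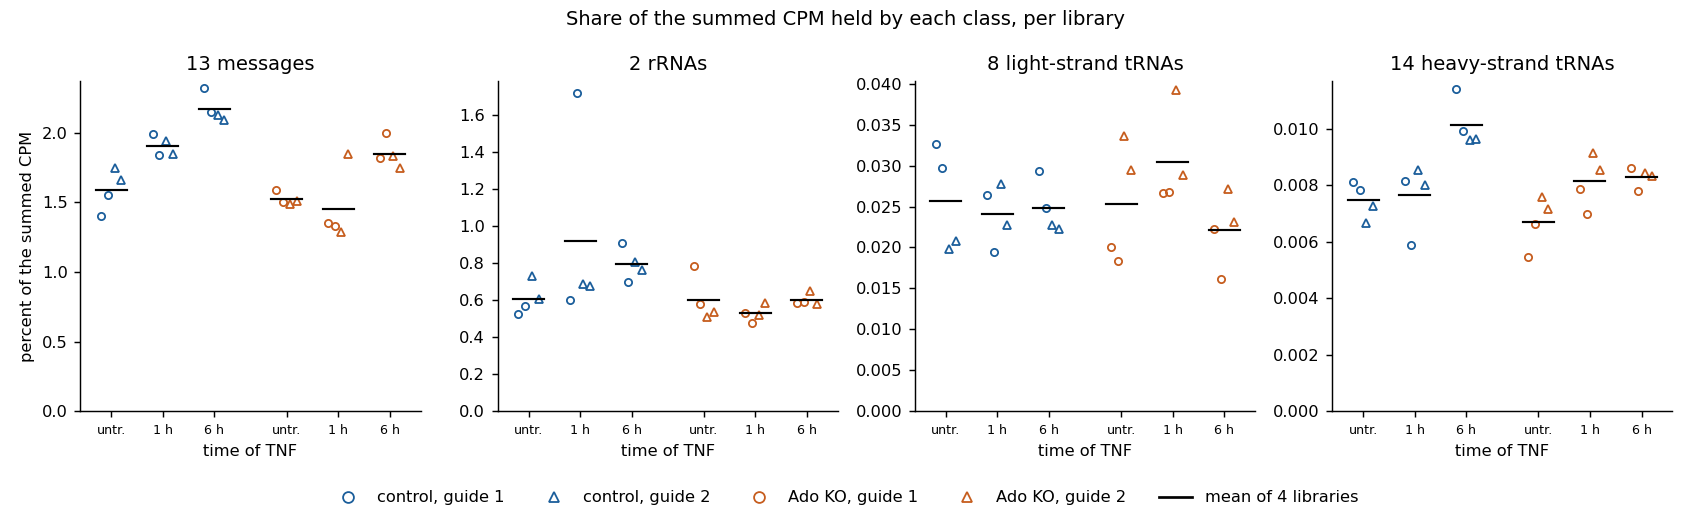
Percent of the summed CPM held by the messages, the rRNAs and the tRNAs of each strand (vertical axes, each from 0) against time of TNF (untr., untreated) for control (left, blue) and Ado KO (right, orange), with 1 point per library and the mean of 4 as a bar. The messages reach 2.09% to 2.32% in the control 6 h libraries against 1.40% to 1.75% untreated, and 1 control library at 1 h holds 1.72% in its rRNAs.

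After 6 h of TNF the mitochondrial messages of control cells rose, and by very different amounts. Of 13 messages 10 were higher and none was lower, and their median change was 0.64 log2 units against -0.09 for all genes tested. Of all 13272 genes 7.74% were called higher in this comparison. Mt-Nd5, mt-Nd4l, mt-Co1 and mt-Nd6 changed most of the called messages, and mt-Nd2, which encodes a complex I subunit, stayed at a difference of 0.06 ± 0.10. In Ado KO cells the same 4 messages were the only ones called higher, again with none lower, beside 4.42% of all genes, and the median change was 0.28 against -0.05 for all genes. Without the 2 libraries that stood apart at 1 h, which add to the estimate of the spread, 12 messages were called in control and 9 in Ado KO cells, beside 9.12% and 4.99% of all genes called higher in that setting. Without the untreated control library of guide 1, replicate 1, 6 messages were called in control cells. The endothelial and pericyte markers summed to 3.74 to 8.31 CPM in untreated and 1.25 to 4.27 CPM in 6 h control libraries, and to 5.52 to 8.91 and 3.46 to 5.88 CPM in Ado KO libraries. Of their 3 tested genes 2 were called lower at 6 h in control cells (median -1.48 log2 units) and 1 in Ado KO cells (median -0.50), beside 10.3% and 2.02% of all genes, and their part in the result was not tested. No epithelial or immune marker was called at 6 h by limma's test (1 epithelial and 1 immune marker lower in control cells at an unadjusted p under 0.05).

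Mt-Nd5, which encodes a large proton-pumping subunit of complex I, moved most. In untreated control libraries it stood at 6.88, 6.95, 7.15 and 7.06 log2 CPM, and at 6 h at 9.39, 9.15, 8.91 and 8.84. All 4 treated libraries lay above all untreated ones, with no overlap. The change was 2.06 ± 0.18 log2 units, a 4.18-fold higher level (adjusted p = 1.5e-10, limma). In Ado KO cells it stood at 7.34, 6.99, 7.01 and 6.95 untreated and at 8.48, 8.22, 8.65 and 8.59 log2 CPM at 6 h. These groups did not overlap either, and the change was 1.41 ± 0.18 (limma, adjusted p = 6.5e-07).

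Mt-Nd4l, a small subunit of complex I whose frame lies upstream of mt-Nd4, stood at 8.25, 8.20, 7.99 and 8.24 log2 CPM in untreated control libraries and at 9.43, 9.28, 9.15 and 9.05 at 6 h. Its Ado KO values went from 8.15, 8.36, 8.16 and 8.18 to 8.96, 8.75, 9.02 and 9.12 log2 CPM. In both genotypes every 6 h library was above every untreated one. The changes were 1.06 ± 0.09 in control cells (limma, adjusted p = 3.2e-11) and 0.75 ± 0.09 in Ado KO cells (adjusted p = 1.0e-07).

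Mt-Co1, the catalytic subunit of complex IV, had little spread between libraries at 6 h. It stood at 9.77, 9.75, 9.89 and 9.88 log2 CPM in untreated control libraries and at 10.92, 10.84, 10.81 and 10.81 at 6 h. In Ado KO cells it stood at 9.88, 9.88, 9.43 and 9.69 untreated and at 10.40, 10.35, 10.37 and 10.41 at 6 h. The 6 h libraries lay above the untreated ones in both genotypes, and the control libraries at 6 h lay above the Ado KO libraries at 6 h. The changes were 1.02 ± 0.07 in control cells (limma, adjusted p = 4.1e-13) and 0.66 ± 0.07 in Ado KO cells (adjusted p = 1.4e-08).

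Mt-Nd6, the complex I subunit on the light-strand precursor, was the lowest message. It stood at 4.80, 4.61, 4.54 and 4.92 log2 CPM in untreated control libraries, at 4.08, 4.27, 4.37 and 4.39 at 1 h and at 5.98, 5.68, 5.52 and 5.32 at 6 h. The 3 control groups did not overlap: the 1 h libraries were the lowest and the 6 h libraries the highest. In Ado KO cells it stood at 4.78, 5.06, 4.77 and 4.99 untreated, 4.76, 4.82, 5.19 and 4.59 at 1 h, and 5.32, 5.03, 5.61 and 5.83 at 6 h, where 1 library at 6 h lay within the untreated range. At 6 h it rose by 0.91 ± 0.15 log2 units in control cells (limma, adjusted p = 3.4e-05) and by 0.55 ± 0.15 in Ado KO cells (adjusted p = 0.0190). The Ado KO call was lost under 6 of 20 alternative settings, among them the fit without Ado KO guide 2. Mt-Nd5 and mt-Nd6 lie on opposite strands and share 14 bases. Whether the tag counting used strand is not given in the sources used here, so tags of a longer mt-Nd5 message and tags of mt-Nd6 cannot be told apart.

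The other messages called higher in control cells at 6 h were those of the ATP synthase subunit mt-Atp6 (0.70 ± 0.14 log2 units), the complex IV subunits mt-Co3 (0.64 ± 0.10) and mt-Co2 (0.34 ± 0.11) and the complex I subunits mt-Nd3 (0.41 ± 0.12), mt-Nd1 (0.39 ± 0.10) and mt-Nd4 (0.31 ± 0.10). By complex, 6 of 7 complex I messages, all 3 of complex IV, 1 of 2 of the ATP synthase and the 1 of complex III not at all were called. Among these, mt-Co3 was called under every alternative setting, as were mt-Nd5, mt-Nd4l, mt-Co1 and mt-Nd6. Without control guide 1 the calls of mt-Atp6, mt-Co2, mt-Nd3, mt-Nd1 and mt-Nd4 were lost. The 6 messages called in that setting thus include a message that is not among the 10. In Ado KO cells the changes of the 9 messages not called ran from 0.02 for mt-Nd3 to 0.69 ± 0.30 for mt-Atp8.

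Across the 13 messages the 6 h change was larger where the untreated level in log2 CPM was lower, with Pearson's r of -0.62 in control and -0.62 in Ado KO cells (Spearman's rho -0.76 and -0.64). The changes of the 2 genotypes had r of 0.95 and rho of 0.85 over these 13 messages, with mt-Nd5 at the top of both. The control change had r of 0.00 and rho of -0.23 with the longest run of A in the gene. The untreated value enters both the change and the level, which by itself favours a negative relation between them. These relations are across genes of 1 genome that share precursors and libraries, and are given as a description.

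**Figure D2:**
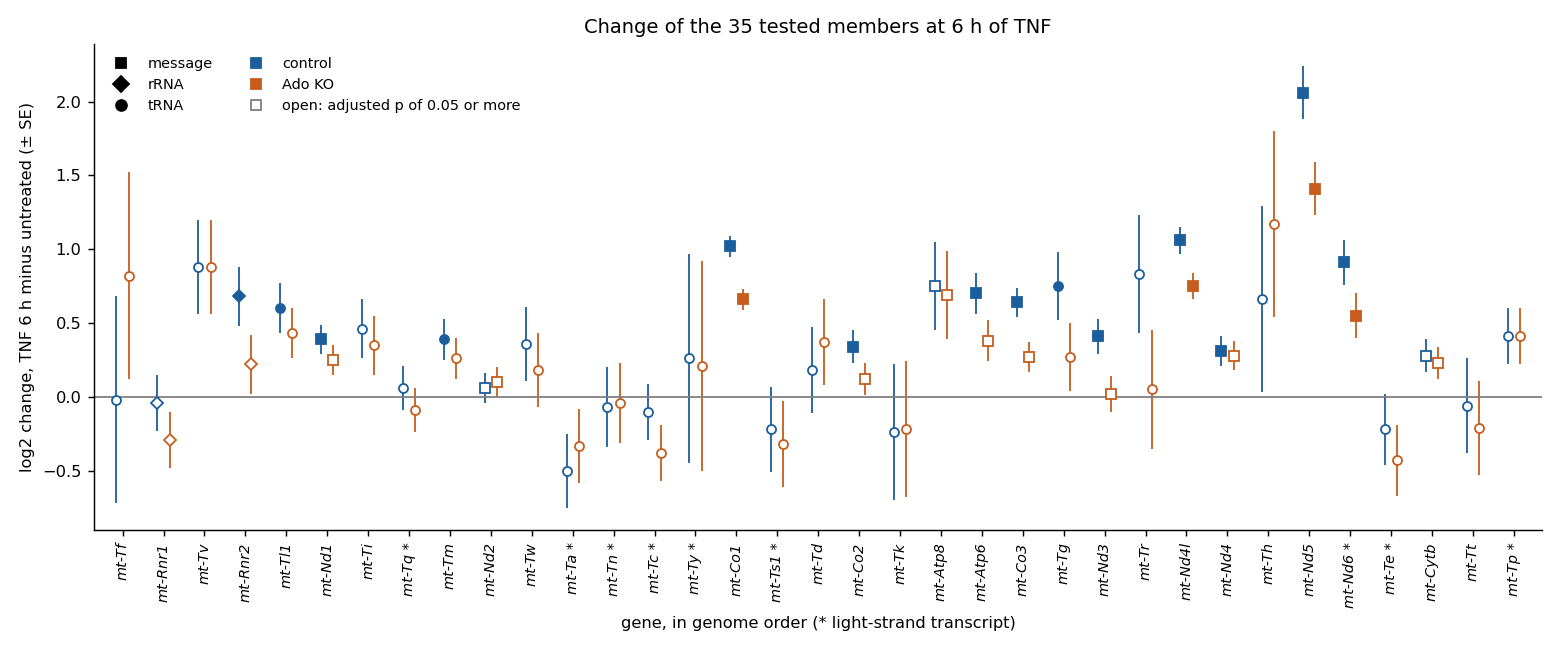
Log2 change at 6 h of TNF against untreated with its standard error (vertical axis) for the 35 tested members in genome order, in control (blue) and Ado KO cells (orange), with squares for messages, diamonds for rRNAs, circles for tRNAs and filled symbols for an adjusted p under 0.05. Mt-Nd5 reaches 2.06 and 1.41, mt-Nd2 stays at 0.06 and 0.10, and 5 of the 8 light-strand tRNAs lie below 0 in control cells.

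Parts of single messages could be read from nuclear copies of mitochondrial genes. Such copies are insertions of mitochondrial DNA in the nuclear genome, and 17 other rows of the table held a stretch at least 85% identical to a member over at least 50 bases. On chromosome 1 of the nuclear genome stands a row of copies with almost the same letters: Gm10222 holds 294 bases of mt-Nd4l and Gm10925 holds 678 bases of mt-Atp6, both at 100% identity. Gm28437 (783 bases of mt-Co3, 100%), Gm28661 (681 bases of mt-Co2, 100%) and Gm28438 (345 bases of mt-Nd3, 99.7%) are likewise nearly whole. In each of the 24 libraries these 5 rows differed from their member by at most 0.0558 log2 units. How tags that match both places were counted is not given in the sources used here, and the level of these 5 members cannot be told apart from that of the copy.

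A further pair of chromosome 1 copies holds only part of a member. Gm28439 is identical to bases 1 to 876 of the 1378 bases of mt-Nd4, the upstream part, and Gm29216 matches bases 1063 to 1545 of the 1545 bases of mt-Co1 (99.8%), the 3′ part. Read as windows on their member, the copies divide each row into an upstream and a 3′ part, taking the difference of the unlogged values as the other part. This division was chosen after the values were seen, and it holds as far as the tags of a copy row are also counted in its member. It also uses values that appear quantile normalised, which can scale a member and its lower copy differently. The parts and shares are therefore approximate and not fractions of counted tags.

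In control cells the upstream part of mt-Nd4 stood at 7.27, 7.60, 7.51 and 7.30 log2 CPM untreated and at 9.04, 8.66, 8.58 and 8.44 at 6 h, a mean difference of 1.26. Its 3′ part stood at 10.83, 10.88, 10.80 and 10.88 log2 CPM untreated and at 11.14, 10.81, 11.12 and 11.05 at 6 h, a mean difference of 0.18. The upstream groups did not overlap, and the 3′ groups did. The upstream share of the mt-Nd4 row was 8.54 ± 0.892% untreated and 16.5 ± 2.51% at 6 h (SD, n = 4 each), with an exact two-sided permutation p of 0.0286, the smallest that 4 against 4 libraries can give (adjusted p = 0.0457 over 8 comparisons). This test exchanges all 8 libraries freely, although each pair of libraries shares a guide population and the control shares at 6 h split by guide (18.9% and 18.4% with guide 1, 14.7% and 14.0% with guide 2). With labels exchanged only within a guide, a test added after the values were seen, 36 arrangements are possible and the smallest two-sided exact permutation p is 0.0556. That value was reached by each of the 5 comparisons of mt-Nd4 and mt-Co1 shares given here with 0.0286, so none of them passes 0.05 in this test. In the Ado KO group the share was 9.73 ± 1.48% untreated and 12.6 ± 0.392% at 6 h (exact permutation p = 0.0286, adjusted p = 0.0457, n = 4 each).

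At 1 h the upstream share of mt-Nd4 was 9.72%, 14.7%, 9.72% and 9.65% in control cells, 2.42 percentage points above untreated in the mean (exact permutation p = 0.0286, adjusted p = 0.0457, n = 4 each) and 1.16 points without the library that stood apart. The Ado KO share differed by -0.305 points at 1 h (exact permutation p = 0.800, adjusted p = 0.800, n = 4 each).

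Mt-Co1 showed the same order of its parts. The upstream part, bases 1 to 1062, stood at 7.62, 7.91, 7.65 and 7.69 log2 CPM in untreated control libraries and at 9.82, 9.78, 9.32 and 9.22 at 6 h, a mean difference of 1.81. Its 3′ part stood at 9.40, 9.28, 9.55 and 9.53 untreated and at 10.02, 9.90, 10.18 and 10.23 log2 CPM at 6 h, a mean difference of 0.64. Here both parts were higher at 6 h in every library, the upstream part by more. The upstream share went from 23.4 ± 3.08% to 40.8 ± 7.56% in control cells and from 29.7 ± 1.85% to 38.9 ± 2.86% in Ado KO cells (exact permutation p = 0.0286, adjusted p = 0.0457, n = 4 each, in both genotypes). With each library left out in turn the difference in share at 6 h in control cells stayed between 15.0 and 19.9 percentage points for mt-Co1 and between 7.17 and 8.79 for mt-Nd4. The rows mt-Nd4l and mt-Nd5 could not be divided in this way.

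**Figure D3:**
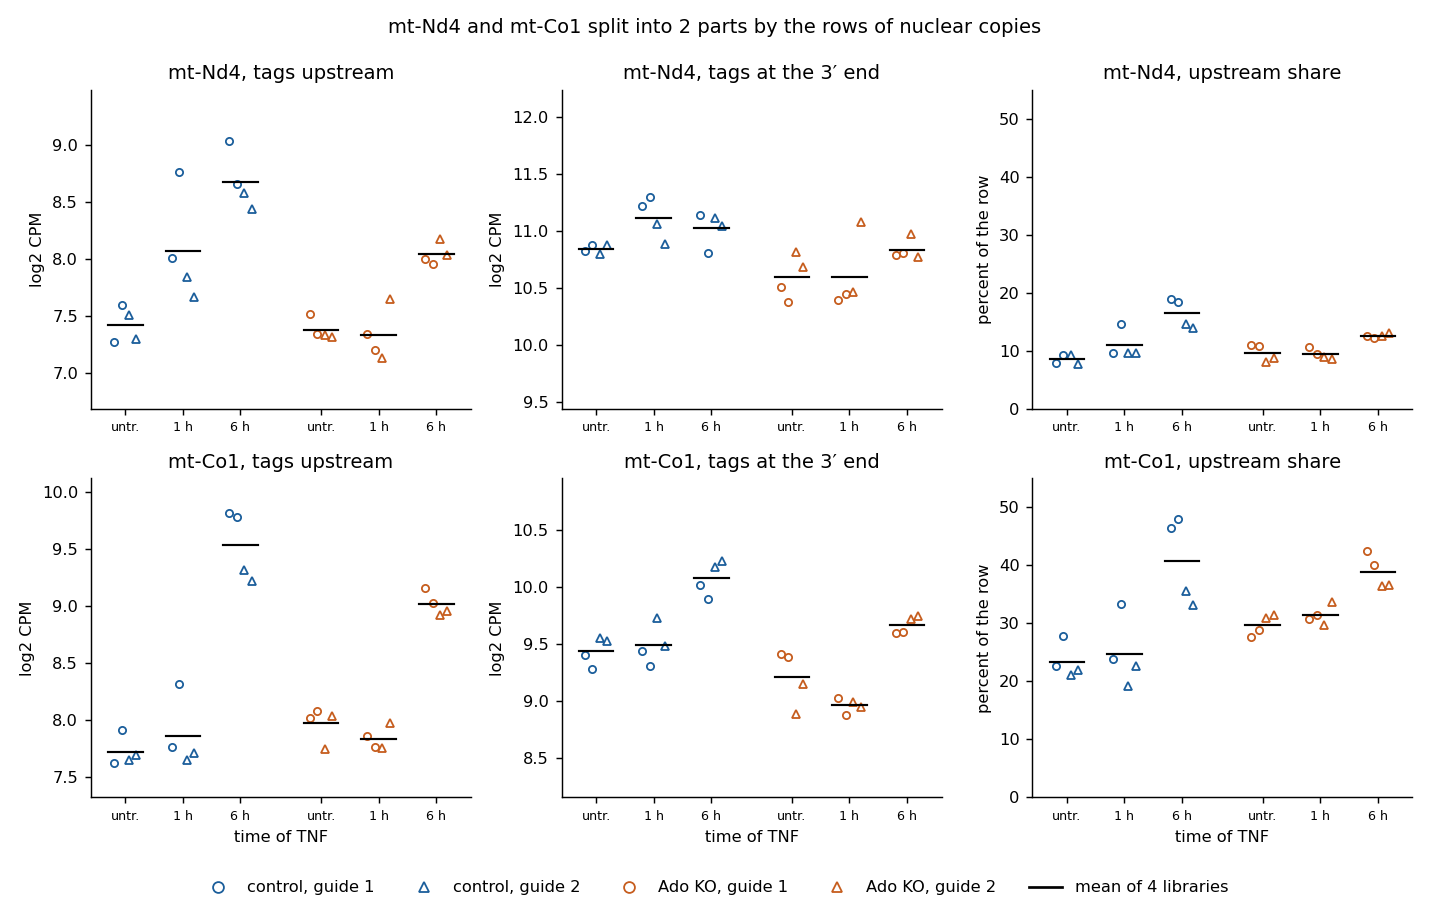
Upstream part and 3′ part of the rows mt-Nd4 (top) and mt-Co1 (bottom) in log2 CPM, and the upstream part as a percent of the row (right, from 0), against time of TNF (untr., untreated), with 1 point per library and the mean of 4 as a bar. The upstream share of mt-Co1 has a mean of 23.4% untreated and 40.8% at 6 h in control cells, where the means of the 3′ part of mt-Nd4 differ by 0.18 log2 units.

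The more diverged copies of mt-Nd5 followed it: Gm4076 (954 bases, 95.2% identity) rose by 2.02 ± 0.25 log2 units in control cells at 6 h and Gm11407 (1058 bases, 92.3%) by 2.23 ± 0.35 (limma, adjusted p = 2.7e-07 and 2.2e-05). Gm13339, a copy of part of mt-Nd2 (510 bases, 96.7%), changed by -0.08 ± 0.10 and was not called, like mt-Nd2 itself. Copies of this kind were named after their values were seen.

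The rRNAs, which build the small (mt-Rnr1) and large (mt-Rnr2) subunit of the mitochondrial ribosome, did not move together. Mt-Rnr2 stood at 11.29, 11.56, 12.07 and 11.74 log2 CPM in untreated control libraries, at 11.87, 13.32, 11.95 and 11.95 at 1 h and at 12.58, 12.20, 12.38 and 12.25 at 6 h. The 6 h libraries lay above the untreated ones. The change at 6 h was 0.68 ± 0.20 (limma, adjusted p = 0.0160), a call that was lost under 4 of 20 alternative settings, among them the fit without control guide 1. For Ado KO cells mt-Rnr2 stood at 12.07, 11.62, 11.53 and 11.53 untreated, 11.42, 11.19, 11.44 and 11.87 at 1 h, and 11.87, 11.95, 11.95 and 11.87 log2 CPM at 6 h, where the groups overlapped. The change there was 0.22 ± 0.20 and was not called.

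Mt-Rnr1 stood at 11.42, 11.37, 11.53 and 11.35 log2 CPM in untreated control libraries, at 11.12, 12.76, 11.50 and 11.44 at 1 h and at 11.53, 11.15, 11.42 and 11.42 at 6 h. The row in Ado KO cells stood at 11.79, 11.35, 11.05 and 11.23 untreated, 11.32, 11.23, 11.23 and 11.04 at 1 h, and 11.02, 10.92, 11.32 and 11.00 log2 CPM at 6 h. Apart from the 1 control library at 1 h, untreated and treated libraries of each genotype overlapped. The 6 h changes were -0.04 ± 0.19 in control and -0.29 ± 0.19 in Ado KO cells, neither called.

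**Figure D4:**
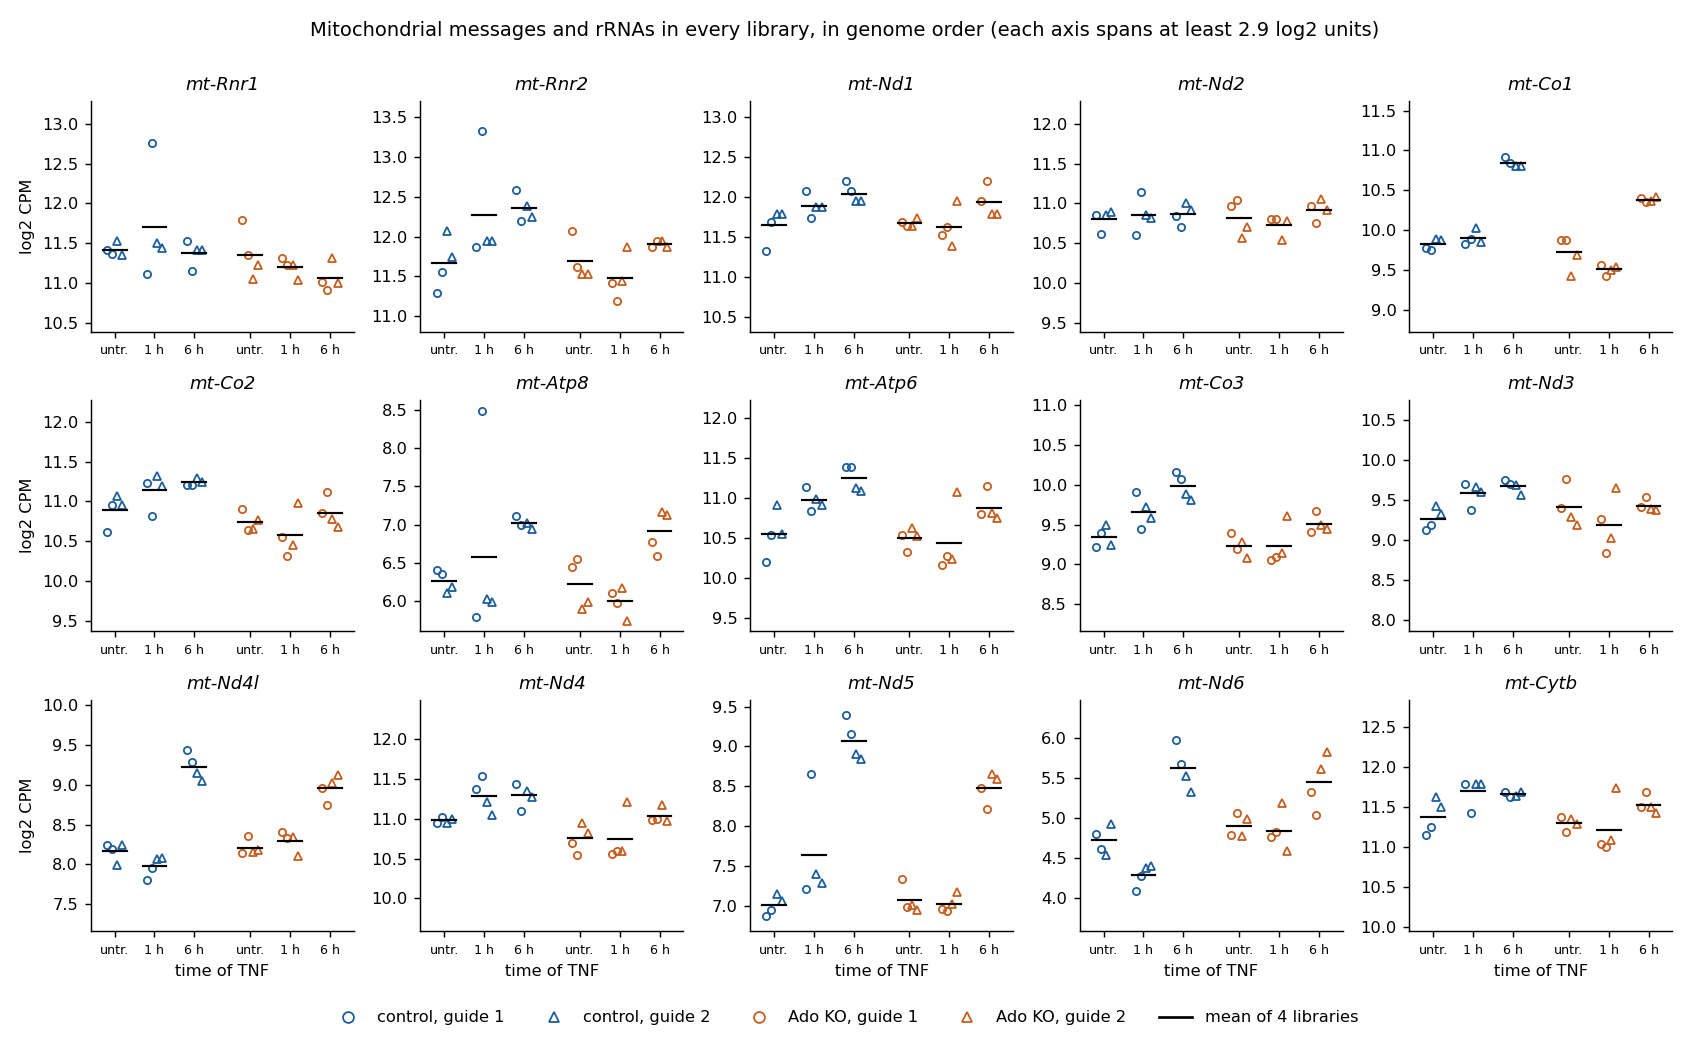
Log2 CPM of the 2 rRNAs and 13 messages in every library (vertical axes differ in position and span at least 2.9 log2 units) against time of TNF (untr., untreated), for control (blue) and Ado KO (orange), with circles for guide 1, triangles for guide 2 and a bar for the mean of 4. At 6 h mt-Nd5, mt-Nd4l and mt-Co1 lie above untreated in every library of both genotypes, and 1 control library at 1 h stands apart in mt-Rnr1, mt-Rnr2, mt-Atp8 and mt-Nd5.

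The tRNA rows were low: together they held 0.0240% to 0.0483% of the summed CPM. Mature tRNAs are short, folded and end in CCA without an A tail. The 8 light-strand tRNAs had a median level of 3.40 log2 CPM against 1.59 for the 14 heavy-strand tRNAs, and made up 67.6% to 81.6% of the summed tRNA value in a library. Whether the counting used strand is not given, so a row's own tags cannot be told apart from tags of the opposite strand. Mt-Tq and mt-Te alone made up 52.8% to 67.1%. A run of A did not mark the high rows: mt-Tq, at a mean of 7.14 log2 CPM, has no run longer than 2 A, while mt-Tr, with a run of 8, averaged 0.60.

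Mt-Tq stood at 7.45, 7.26, 6.81 and 6.95 log2 CPM in untreated control libraries and at 7.44, 7.20, 7.03 and 7.05 at 6 h. Among Ado KO libraries it stood at 6.76, 6.57, 7.58 and 7.23 untreated and at 6.96, 6.55, 7.20 and 7.08 log2 CPM at 6 h. The groups overlapped, and the changes were 0.06 ± 0.15 and -0.09 ± 0.15, not called. Mt-Te stood at 6.46, 6.41, 5.41 and 5.40 log2 CPM in untreated control libraries and at 6.02, 5.77, 5.59 and 5.44 at 6 h. The row in Ado KO cells stood at 5.50, 5.52, 6.38 and 6.35 untreated and at 5.60, 5.04, 5.93 and 5.43 log2 CPM at 6 h. The untreated libraries fell apart by guide: guide 1 was high in control cells and guide 2 was high in Ado KO cells. The 6 h changes were -0.22 ± 0.24 and -0.43 ± 0.24 log2 units, not called.

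This split by guide was compared in a fit of 12 means of guide and treatment, chosen after the values were seen. In untreated control cells mt-Te differed by -1.03 ± 0.25 log2 units between guide 2 and guide 1 (limma, adjusted p = 0.0392), beside 0.445% of all genes called lower and 0.452% called higher. In untreated Ado KO cells mt-Tq was 0.74 ± 0.14 higher with guide 2 (limma, adjusted p = 0.0283), beside 0.0980% of all genes called higher and 0.0226% called lower. No other member differed between guides at an adjusted p under 0.05 in any of the 6 groups. Of all genes 0.761% were called higher and 0.520% lower between control guides at 1 h, 0.437% and 0.196% at 6 h, and between Ado guides 0% at 1 h and 0.00753%, all higher, at 6 h. These differences between 2 guides of 1 genotype are at least as large as 2 of the 3 tRNA changes called at 6 h.

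After 6 h of TNF 3 of 20 tested tRNAs were higher in control cells and none was lower, beside 7.74% of all genes higher and 10.3% lower. None was called in Ado KO cells, where 3 had an unadjusted p under 0.05, all of them higher, beside 8.22% of all genes higher and 9.62% lower. The 3 called in control cells were mt-Tg, mt-Tl1 and mt-Tm for methionine (0.39 ± 0.14 log2 units, adjusted p = 0.0486), all on the heavy strand. The mt-Tm call was lost under 14 of 20 alternative settings, and 5 tRNAs were called without the 2 libraries that stood apart at 1 h. Mt-Tg stood at 2.80, 2.19, 2.36 and 2.56 log2 CPM in untreated control libraries and at 3.30, 3.25, 3.16 and 3.21 at 6 h, and changed by 0.75 ± 0.23 (limma, adjusted p = 0.0195). Mt-Tl1 stood at 3.58, 3.19, 2.80 and 3.01 log2 CPM untreated and at 3.86, 3.81, 3.55 and 3.75 at 6 h, and changed by 0.60 ± 0.17 (limma, adjusted p = 0.0141). The mt-Tg groups did not overlap, and those of mt-Tl1 did by 1 untreated library. The mt-Tg call was lost under 4 and the mt-Tl1 call under 3 of 20 alternative settings, among them the fits without control guide 1 and without control guide 2. For Ado KO cells mt-Tg stood at 2.25, 3.01, 2.54 and 2.39 untreated and at 2.76, 3.26, 2.70 and 2.55 log2 CPM at 6 h, and mt-Tl1 at 2.67, 2.80, 2.72 and 3.43 and then at 3.28, 3.42, 3.33 and 3.34, with overlap in both.

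By strand, the median change at 6 h in control cells was 0.42 for the 12 tested heavy-strand tRNAs and -0.08 for the 8 light-strand ones, beside -0.09 for all genes. The Ado KO medians were 0.31 and -0.21, beside -0.05 for all genes. The difference between the strands was not tested, and here too a row's own tags cannot be told apart from tags of the opposite strand.

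At 1 h of TNF no member was called by limma's test in either genotype. In control cells 8 messages were higher and 2 lower at an unadjusted p under 0.05, beside 7.78% and 6.36% of all genes, and the median change of the messages was 0.31 against -0.03 for all genes. Adjusted calls were few in the whole table, with 0.332% of genes higher and 0.0603% lower. The largest values were 0.63 ± 0.18 log2 units for mt-Nd5 and 0.42 ± 0.14 for mt-Atp6 (limma, adjusted p = 0.117 and 0.159), and the 2 messages with negative values were mt-Nd6 at -0.44 ± 0.15 and mt-Nd4l at -0.19 ± 0.09 (adjusted p = 0.175 and 0.301). Mt-Nd5 stood at 7.21, 8.66, 7.40 and 7.29 log2 CPM at 1 h, so its change rests in part on the 1 library that stood apart. The Ado KO median was -0.07 against -0.00, 12 of 13 messages had negative values, and only mt-Co1, at -0.21 ± 0.07, had an unadjusted p under 0.05, beside 3.49% of all genes lower and 3.77% higher. There 0.241% of genes were called higher and 0.0151% lower. With both libraries that stood apart left out, 5 messages were called higher in control cells at 1 h (mt-Atp6, mt-Co2, mt-Co3, mt-Cytb and mt-Nd3), beside 0.460% of all genes, and still none in Ado KO cells.

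The changes at 1 h and 6 h are measured against the same untreated libraries. In control cells mt-Cytb, mt-Nd4 and mt-Co2 stood at 0.32, 0.31 and 0.24 log2 units at 1 h and 0.28, 0.31 and 0.34 at 6 h, while mt-Co1 stood at 0.08 and 1.02, mt-Nd4l at -0.19 and 1.06 and mt-Nd6 at -0.44 and 0.91. The 1 h and 6 h libraries were not tested against each other.

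Without TNF the genotypes did not differ in any member by the adjusted test, and the median difference of the messages, Ado KO minus control, was -0.05 log2 units. At an unadjusted p under 0.05 1 message, mt-Nd4 (-0.23 ± 0.11), was lower and none higher, beside 4.73% and 4.05% of all genes. Of all genes 0.0678% were called higher and 0.181% lower.

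At 1 h of TNF 5 messages were lower in Ado KO than in control cells and none was higher, beside 0.535% of all genes lower and 0.527% higher. They were mt-Co1 (-0.40 ± 0.07 log2 units, limma, adjusted p = 0.00420), mt-Co2 (-0.56 ± 0.11, adjusted p = 0.0113), mt-Co3 (-0.44 ± 0.11, adjusted p = 0.0382), mt-Nd4 (-0.55 ± 0.11, adjusted p = 0.00960) and mt-Cytb (-0.48 ± 0.12, adjusted p = 0.0320). All 3 complex IV messages were among them. Mt-Co1 stood at 9.83, 9.89, 10.03 and 9.85 log2 CPM in the control libraries at 1 h and at 9.56, 9.43, 9.50 and 9.54 in the Ado KO libraries. Mt-Co2 stood at 11.23, 10.82, 11.32 and 11.19 in control and at 10.55, 10.32, 10.46 and 10.98 log2 CPM in Ado KO libraries. The mt-Co1 groups did not overlap, and those of mt-Co2 overlapped by the Ado KO library that stood apart.

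This count moved with the libraries. Without both libraries that stood apart 8 messages were lower and 2, mt-Nd4l and mt-Nd6, were higher, 10 in all, while the calls among all genes went from 0.535% to 2.00% lower and from 0.527% to 1.08% higher. Left out singly, the Ado KO 1 h library of guide 2, replicate 2, gave 10 messages, beside 1.89% of all genes lower and 1.38% higher, and that of guide 2, replicate 1, gave 1. The Ado KO libraries of guide 1 gave 3 (replicate 1) and 2 (replicate 2), and the control 1 h libraries of guide 1 and guide 2, replicate 1, gave 3 each. A fit without a trend of the variance on the mean gave 0. In the fit with all libraries mt-Nd4l and mt-Nd6 differed by 0.33 ± 0.09 and 0.56 ± 0.16 log2 units (limma, adjusted p = 0.0677 and 0.0680), against the direction of the other 11 messages. The rRNA mt-Rnr2 differed by -0.79 ± 0.21 (adjusted p = 0.0542), a value that includes the control library with 13.32 log2 CPM. Without the libraries that stood apart mt-Rnr2 was called lower and the median of both rRNAs was -0.33. The 8 light-strand tRNAs had a median difference of 0.59 log2 units at 1 h, and none was called (4 higher and 0 lower at an unadjusted p under 0.05, beside 8.47% and 7.31% of all genes). This value rests in part on the control library of guide 1, replicate 2, in which mt-Ta and mt-Te were low. Without it the median was 0.31, with 1 higher at an unadjusted p under 0.05, and the median of all 20 tested tRNAs went from 0.30 to 0.18.

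At 6 h 2 messages were lower in Ado KO than in control cells, mt-Co1 (-0.47 ± 0.07 log2 units, limma, adjusted p = 4.7e-04) and mt-Co3 (-0.48 ± 0.11, adjusted p = 0.0216), beside 0.595% of all genes lower and 0.422% higher. Mt-Co3 stood at 10.16, 10.07, 9.88 and 9.81 log2 CPM in control and at 9.41, 9.67, 9.50 and 9.44 in Ado KO libraries, without overlap. Mt-Co1 stayed called under all 22 alternative settings, between -0.52 and -0.43, and mt-Co3 under 13. Mt-Co1 alone was called without either control 6 h library of guide 1, without the Ado KO 6 h library of guide 1, replicate 1, and without either of guide 2. Of the 13 messages 12 had negative differences, with a median of -0.26, and mt-Nd2, at 0.06 ± 0.10, was the other.

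The difference in response itself was tested as an interaction. At 1 h and at 6 h 0 messages were called, beside 0% of all genes at 1 h and 0.347% lower at 6 h. At an unadjusted p under 0.05 9 messages were lower and 1 higher at 1 h, beside 5.09% and 4.73% of all genes, and 5 lower and 0 higher at 6 h, beside 3.39% and 3.34%. The difference in the 6 h response was -0.36 ± 0.10 log2 units for mt-Co1 and -0.65 ± 0.25 for mt-Nd5 (limma, adjusted p = 0.175 and 0.621). Without both libraries that stood apart 5 messages were called lower at 1 h (mt-Atp6, mt-Co2, mt-Co3, mt-Cytb and mt-Nd3) and 1, mt-Nd5, at 6 h, beside 0.633% and 0.429% of all genes lower. A smaller rise in Ado KO cells was thus not called for any message in the fit with all libraries.

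**Figure D5:**
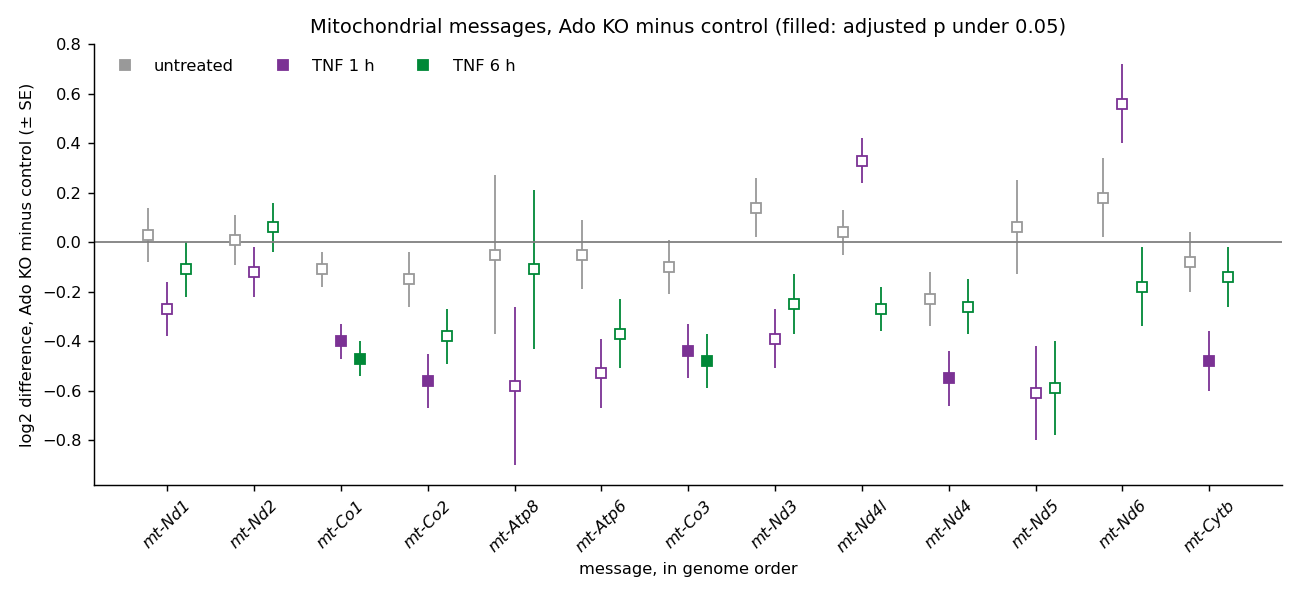
Log2 difference, Ado KO minus control, with its standard error (vertical axis) for the 13 messages in genome order, in untreated cells (grey), at 1 h (purple) and at 6 h of TNF (green), with filled symbols for an adjusted p under 0.05. The untreated differences lie between -0.23 and 0.18, and mt-Nd4l and mt-Nd6 stand above 0 at 1 h while the other 11 lie below.

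Of other RNAs without a long A tail, small non-coding RNAs held a larger share at 6 h, while the share of histone messages overlapped with untreated. Their part in the result was not tested. Small non-coding RNAs (such as snRNAs, snoRNAs and Rn7sk) held 0.264% to 0.305% of the summed CPM in untreated control libraries and 2.18% to 3.35% at 6 h. In Ado KO libraries they held 0.284% to 0.388% untreated and 1.44% to 1.70% at 6 h. The groups do not overlap, and the control libraries of guide 1, which had the higher values at 6 h (3.35% and 3.28%), also had the higher upstream shares of mt-Nd4 and mt-Co1. In Ado KO cells at 6 h the small RNAs held 1.70% and 1.63% with guide 1 and 1.44% and 1.46% with guide 2. The upstream shares of mt-Co1 there were 42.4% and 40.1% with guide 1 and 36.5% and 36.6% with guide 2. Those of mt-Nd4 did not follow, at 12.6% and 12.2% with guide 1 and 12.6% and 13.1% with guide 2. At 1 h the small non-coding RNAs held 0.288% to 0.392% in control and 0.387% to 0.471% in Ado KO libraries. Of 64 messages of replication-dependent histones, which end in a stem-loop, 40 were called higher and 1 lower at 6 h in control cells, beside 7.74% and 10.3% of all genes, and 24 and 4 in Ado KO cells, beside 4.42% and 2.02%. The summed share of these histone messages was 0.751 ± 0.0285% untreated and 0.766 ± 0.0434% at 6 h in control cells (SD, n = 4 each). In Ado KO cells it was 0.844 ± 0.124% untreated and 0.748 ± 0.0611% at 6 h. At 1 h it was 0.883 ± 0.0428% in control and 0.986 ± 0.0774% in Ado KO cells.

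The nuclear genes that make and use these RNAs were counted list by list at 6 h. Of 7 genes for mitochondrial transcription 0 were called higher and 1 lower in control cells at 6 h, beside 7.74% of all genes higher and 10.3% lower, with 1 and 1 at an unadjusted p under 0.05 (11.7% and 19.4% of all genes) and a median of 0.23 log2 units. The member called lower was Mterf2, a protein of the transcription termination factor family (-1.43 ± 0.42 log2 units, limma, adjusted p = 0.0187). Its row was low, with means of 0.07 log2 CPM untreated and -1.36 at 6 h, near and below the filter level of 0. Polrmt changed by -0.34 ± 0.17 and Tfam by 0.23 ± 0.13 (limma, adjusted p = 0.171 and 0.243). Of 10 genes for copying mitochondrial DNA none was called in either direction, with 0 and 1 at an unadjusted p under 0.05.

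Of 20 genes for cutting, tailing and decay of mitochondrial RNA 3 rose and 3 fell in control cells, with a median of 0.01. Of all genes 7.74% were called higher and 10.3% lower in this comparison. Pde12, which removes A tails in mitochondria, rose by 0.46 ± 0.13 log2 units, and Rexo2, which degrades short RNAs, changed by -0.29 ± 0.08 (limma, adjusted p = 0.0126 and 0.00895). Of 16 tRNA maturation genes 2 rose and none fell, beside the same shares of all genes. Qtrt2 of the queuosine enzyme rose by 0.94 ± 0.21 and Trnt1, which adds CCA ends, by 0.51 ± 0.17 (limma, adjusted p = 0.00237 and 0.0327). Of 15 genes for rRNA maturation 1 fell and none rose, beside the same shares of all genes. It was the methyltransferase gene Mrm2, at -0.67 ± 0.19 (limma, adjusted p = 0.0164).

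Of 81 mitochondrial ribosomal protein genes 15 fell and none rose in control cells at 6 h (0 higher at an unadjusted p under 0.05), beside 10.3% of all genes lower and 7.74% higher, with a median of -0.18 against -0.09 for all genes. Mrps6 had the smallest adjusted p among them, with a change of -0.47 ± 0.06 log2 units (limma, adjusted p = 1.0e-06). Of 86 nuclear subunit genes of the respiratory chain and ATP synthase 21 fell and none rose (3 higher at an unadjusted p under 0.05), beside the same 10.3% and 7.74%, with a median of -0.15. Atp5k was among them at -0.30 ± 0.06 (limma, adjusted p = 4.5e-04). With Ado KO, 1 of the 81 and 3 of the 86 fell and none rose, beside 2.02% of all genes lower. The mitochondrial messages had medians of 0.64 in control and 0.28 in Ado KO cells at 6 h. The nuclear subunit genes had -0.15 and -0.10, beside -0.09 and -0.05 for all genes, so their sign is that of all genes.

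Among 19 mitochondrial tRNA synthetase genes, which load amino acids on the tRNAs above, 1 rose and 1 fell in control cells. Of all genes 7.74% were called higher there and 10.3% lower. Lars2, the leucine enzyme, averaged 4.36 ± 0.26 log2 CPM untreated and 7.56 ± 0.61 at 6 h (SD, n = 4) and rose by 3.20 ± 0.19 log2 units, and by 1.96 ± 0.19 in Ado KO cells (limma, adjusted p = 2.1e-14 and 3.6e-09). Of its substrates mt-Tl1 rose by 0.60 in control cells and mt-Tl2 did not pass the filter. Whether the tags of the Lars2 row come from the message of the enzyme was not tested. The 19 genes together had a median change of -0.18 log2 units in control and -0.10 in Ado KO cells. Pars2, the proline enzyme, changed by -0.88 ± 0.24 (adjusted p = 0.00981). Of 7 tested nuclear regulators of mitochondrial content 1 rose and 1 fell in control cells, beside the same shares of all genes. Myc changed by 0.85 ± 0.28 and the coactivator gene Ppargc1b by -0.84 ± 0.19 (limma, adjusted p = 0.0320 and 0.00258).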

How the data were processed

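Total RNA of MC38 cells was made into libraries with a QuantSeq 3′ mRNA kit, per the labels' protocols. As tools, limma, featureCounts from Subread, HISAT2, cutadapt 1.7 and FastQC are listed in the submitters' processing notes, with the builds mm10 and GRCm38. Order, strand setting and treatment of tags that match several places are not given in the sources used here. The authors deposited log2 CPM values per gene. That they were quantile normalised was inferred from the shared lowest and highest value. The unlogged values summed to 998900 to 999014 per library, 617 to 1013 genes stood at the lowest value, and depth is unknown. For control guide 2 at 1 h the titles and column names give opposite replicate numbers. Columns were joined by the description, and numbers follow the titles.

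Values were used as deposited. Genes with at least 0 log2 CPM in at least 4 libraries were fitted with limma 3.58.1 (statmod 1.5.0, R 4.3.3): 6 group means, guide population as random block (correlation 0.0485), variance trend, two-sided tests, Benjamini-Hochberg adjustment over 13272 genes. Shares of parts of messages were compared with exact permutation tests, over all libraries and within guides. Same-numbered replicates deviated with correlations of -0.158 to 0.0543 between treatments, so no pairing by number was seen. With so few libraries per guide and treatment these values cannot exclude a pairing. A blastn 2.17.0 search located the copies, and matplotlib 3.10.9 drew the plots. The fit was tested on simulated data.

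Every mt- row is a member. Values per library are given for the 4 called messages with the largest change at 6 h, both rRNAs and 4 tRNAs with the highest level or largest called change. Members, lists and this rule were chosen with earlier results of these data known. Other members, copies and the guide comparison were named after their values were seen. Alternatives were other filters, log2(CPM + 1), libraries centred or normalised again on nuclear protein-coding genes, other blocks, no variance trend, and libraries or guides left out.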

Additional observations from a re-analysis of the deposited data

Results flagged for a closer look

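In 132 groups of 4 libraries (the 13 messages, the 2 rRNAs, 4 tRNAs and 3 class shares in 6 groups) 1 library lay farther from the rest than Dixon's ratio allows in 21. Chance alone gives about 1 in 20 such groups, and members of 1 library are not independent. No cause was tested.

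The control 1 h library of guide 1, replicate 2, held 5 of these. Mt-Rnr2 stood at 13.32 log2 CPM against 11.87 to 11.95 in the others of its group, mt-Atp8 at 8.49 against 5.79 to 6.03 and mt-Nd5 at 8.66 against 7.21 to 7.40. Mt-Cytb was low there, at 11.42 log2 CPM against 11.79 in all others. The rRNA share was 1.72% against 0.598% to 0.684%, while the message share, 1.84%, was the lowest of its group.

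The Ado KO 1 h library of guide 2, replicate 2, held another 5: mt-Atp6 at 11.07 log2 CPM against 10.16 to 10.27, mt-Co3 at 9.61 against 9.06 to 9.15, mt-Nd4 at 11.21 against 10.56 to 10.60, mt-Cytb at 11.74 against 11.00 to 11.09, and a message share of 1.85% against 1.29% to 1.35%.

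The other 11 were spread over 8 libraries. Mt-Nd2 was low in an untreated control library (guide 1, replicate 2) at 10.62 log2 CPM, and in an Ado KO 1 h library (guide 2, replicate 1) at 10.54, where mt-Te was high at 6.66. In the untreated Ado KO library of guide 1, replicate 1, mt-Nd5 stood at 7.34 and mt-Rnr2 at 12.07 log2 CPM. In other untreated Ado KO libraries mt-Nd4l stood at 8.36 (guide 1, replicate 2) and mt-Tl1 at 3.43 (guide 2, replicate 2). At 1 h mt-Tg was low at 2.20 (Ado KO guide 1, replicate 2). At 6 h in Ado KO cells mt-Atp6 stood at 11.15 log2 CPM (guide 1, replicate 2), mt-Nd4 at 11.17 and the rRNA share at 0.651% (both guide 2, replicate 1).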

How the results depend on the processing

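None of the 25 member values called in a reported comparison changed direction under the 20 or 22 alternatives run for it. Called under each of these were, at 6 h, mt-Co1, mt-Co3, mt-Nd4l, mt-Nd5 and mt-Nd6 in control cells, mt-Co1, mt-Nd4l and mt-Nd5 in Ado KO cells, and the lower mt-Co1 in Ado KO against control cells. With guide populations as fixed terms the number of called messages was 1 in control cells at 1 h (0 in the reported fit), 10 between genotypes at 1 h (5), 4 between genotypes at 6 h (2) and 1 for the difference in the 6 h response (0). Without a variance trend it was 0 between genotypes at 1 h and 1 at 6 h. Without both libraries that stood apart, a setting chosen after seeing the data, it was 5 in control cells at 1 h, 9 in Ado KO cells at 6 h, 10 and 4 between genotypes at 1 h and 6 h, and 5 and 1 for the difference in response.

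Without control guide 1 it was 6 in control cells at 6 h, and 3 and 1 between genotypes at 1 h and 6 h. Without control guide 2 it was 1 in control cells at 1 h, and 8 and 4 between genotypes. Without Ado KO guide 1 it was 1 at both times, and without Ado KO guide 2 it was 1 at 6 h. Leaving out each library in turn gave 0 to 2 messages in control and 0 to 1 in Ado KO cells at 1 h, 6 to 12 and 3 to 6 at 6 h, 0 to 0 between untreated genotypes, 1 to 10 between genotypes at 1 h, 1 to 3 at 6 h, and 0 to 3 and 0 to 1 for the difference in response at 1 h and 6 h. The value of 10 came without the Ado KO 1 h library of guide 2, replicate 2, and the value of 1 without that of guide 2, replicate 1.

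A fit with the replicate number as a block left all counts of messages as they were (10 and 4 at 6 h, 5 and 2 between genotypes) and took only the mt-Tm call, at 0.39 with an adjusted p of 0.0561 by limma. No pairing of samples by number was seen, though it is not excluded. With labels exchanged only within a guide, added after seeing the data, the exact permutation p of the 5 upstream shares at 0.0286 became 0.0556, the smallest possible. The cause of these shifts was not tested. Depth is not known, so low tRNA rows have no counting interval.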
